A study of Mus musculus with 14 samples.

Results

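The genes described here are 8 major urinary protein (Mup) genes of the mouse, Mup1, Mup2, Mup3, Mup4, Mup5, Mup7, Mup20 and Mup21, taken by their symbols from tables of gene counts of liver and kidney. Of the 8 genes, 7 have a row among the 19660 genes of the liver count table and 5 among the 20203 genes of the kidney count table. Mup4 has no row in either table and was not analysed here, and Mup2 and Mup5 have no row in the kidney count table. In liver there are also rows for 14 other numbered Mup genes and 13 Mup pseudogenes, and in kidney for 11 other numbered Mup genes, which were used to set the members beside their near copies.

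RNA was sequenced from the liver and kidney of transgenic adult male mice of 12 weeks whose genotype the labels give as Hap -6A, the -6A form of human angiotensinogen. All 4 groups carry this transgene, so its own effect was not analysed here. Liver had 4 libraries from mice on Normal Diet and 4 from mice on High Salt, and kidney had 3 of each. Strain, salt dose and time on the diet are not given in the sources used here, nor whether the libraries of a group came from separate animals, so p-values measure only the spread between these libraries. The normal diet liver libraries are called normal diet 1 to 4 after their titles, and the high salt liver libraries high salt 5 to 8 after columns whose numbers match no title. The comparisons ask how the Mup genes stand on each diet in each organ, how the diet difference compares between the organs, and how far the organs differ on the normal diet.

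Major urinary proteins are small lipocalins, barrel-shaped proteins with a pocket for greasy volatile molecules. The male mouse liver makes them in large amounts and secretes them into blood, from which the kidney filters them into urine. There they release pheromones slowly and serve as scent signals of identity and status. Their transcription in liver depends on pulsed growth hormone, androgens, thyroid hormone and glucocorticoids, and so differs between the sexes. Mup20 encodes darcin, a male signal that attracts females, while Mup4 and Mup5 are known mainly from glands and nasal tissue.

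Apart from the pseudogene Mup-ps22 on chromosome 11, the family forms a single array on chromosome 4. Near-identical copies lie in the middle and more diverged copies towards the ends. Positions are those of the files, whose starts equal GENCODE M21 (GRCm38) for all 34 Mup rows of the liver table. Mup7 lies at 60066469 to 60070476, Mup2 at 60135932 to 60154290 and Mup1 at 60498012 to 60501961, all on the minus strand and annotated as protein coding. Mup5 (61831319 to 61835234), Mup20 (62050234 to 62054159), Mup3 (62083476 to 62087343) and Mup21 (62147932 to 62150864) follow on the same strand.

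Copies this similar share reads, so a count for a single gene rests on how the counting split them. In the GENCODE M21 transcripts, 0% of the 50-base words of Mup2 occur in no other gene, against 5.24% for Mup1 and 9.76% for Mup7. For the diverged members this share is 49.5% (Mup20), 80.7% (Mup21), 82.9% (Mup5) and 84.4% (Mup3). The values of Mup1, Mup2 and Mup7 are therefore uncertain as values of single genes. The summed counts of the members do not change with a split among members, although a split between members and other Mup rows still moves them.

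The same division shows in the DNA before the genes. The RefSeq table of promoters (GRCm38.p6) holds 5 of the 8 members and 14 Mup genes in all. The stretches below are 111 bases long, read 5′ to 3′ on the minus strand, and begin at the first atatgt within the 250 bases before each RefSeq start. They show how alike the copies are in sequence, which did not go with how alike their counts were: of the copies identical to Mup2 here, Mup9 ran low in the same libraries as Mup2, and Mup11, Mup18 and Mup19 did not. These counts of single copies depend on how shared reads were split. Capitals mark bases that differ from Mup2 in an alignment, and a missing base is counted as a difference without a capital.
Mup2, chr4:60139991-60140101: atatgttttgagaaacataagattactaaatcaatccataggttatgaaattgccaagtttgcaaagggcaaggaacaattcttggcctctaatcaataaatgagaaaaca
Mup7, chr4:60070476-60070586: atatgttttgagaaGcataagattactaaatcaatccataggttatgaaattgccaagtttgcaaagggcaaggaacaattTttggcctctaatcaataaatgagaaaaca
Mup17, chr4:61595962-61596072: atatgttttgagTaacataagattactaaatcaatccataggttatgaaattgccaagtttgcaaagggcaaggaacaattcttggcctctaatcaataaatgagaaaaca
Mup14, chr4:61304082-61304192: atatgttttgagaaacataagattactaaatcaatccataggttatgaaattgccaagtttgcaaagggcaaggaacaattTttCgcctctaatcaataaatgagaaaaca
Mup4, chr4:59960769-59960879: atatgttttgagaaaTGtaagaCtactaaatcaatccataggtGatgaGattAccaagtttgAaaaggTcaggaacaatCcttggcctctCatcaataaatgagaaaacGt
Mup3, chr4:62087398-62087508: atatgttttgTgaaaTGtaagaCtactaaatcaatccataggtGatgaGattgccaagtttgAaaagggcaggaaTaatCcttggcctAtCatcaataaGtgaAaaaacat
Mup21, chr4:62150916-62151026: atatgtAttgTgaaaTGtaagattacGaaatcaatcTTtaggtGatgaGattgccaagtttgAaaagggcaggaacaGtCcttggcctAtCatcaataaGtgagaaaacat

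Mup9, Mup11, Mup18 and Mup19 have 0 differences from Mup2 in this stretch, Mup7 and Mup14 have 2 each and Mup17 has 1. The diverged members stand further off, with 12 differences for Mup4, 14 for Mup3 and 16 for Mup21. The letters TATATAA, searched on both strands of the 250 bases, were found before 11 of the 14 Mup genes, including 4 of the 5 members with the exception of Mup7, and in 3.04% of all 32851 promoters of the table. The letters TGTTCT were found before Mup3 and Mup21 and in 16.1% of all promoters. TTCNNNGAA and TTGCNNAA were found before 0 of the 14, and in 7.02% and 9.56% of all promoters. These are matches of letters in this window only, and the window moves with the annotated start: the stretch ends 134 bases before the RefSeq start of Mup2 and 0 bases before that of Mup7.

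Liver libraries held 37267778 to 51487382 counts and kidney libraries 16046094 to 22004927. Genes of the mitochondrial genome took 2.30% and 2.06% of the counts in normal diet liver libraries 1 and 2, and between 11.3% and 29.6% in the other 6 liver libraries. High salt liver libraries 5 and 6 were much more alike than any other pair of a diet, with a chi-square per gene of 1.65 against 10.4 to 63.9. Both were kept as libraries of the group because the labels list 4 high salt liver samples, which does not show that they came from separate animals. Of 10 hepatocyte markers all had a row in both tables. In liver they summed to 72714 to 104391 counts per 1000000 counts (CPM, on library sizes scaled by the TMM method) on the normal diet and to 104518 to 125425 CPM on high salt, with no overlap, and in kidney to 851 to 1638 CPM. The liver sums are weighted towards abundant genes such as Alb and do not show that each marker was higher on high salt. Over 24 abundant secreted proteins of hepatocytes, the median log2 fold change in liver was -0.41. The 4 stellate cell and fibroblast markers also did not overlap in liver (53.6 to 102.1 CPM under the normal diet, 109.5 to 126.2 CPM under high salt). Their part in the Mup differences between the diets was not tested. Kidney tubule markers summed to 25662 to 59508 CPM in kidney and to 46.7 to 88.4 CPM in liver, where 7 of the 8 had a row.

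In liver, a few Mup genes supplied several percent of all transcripts counted. The 7 members together held 5.43%, 5.51%, 3.57% and 3.55% of all gene counts in normal diet libraries 1 to 4, and 3.01%, 2.99%, 4.54% and 3.21% in high salt libraries 5 to 8. Counting error alone, as a 95% Wilson interval, amounted to at most 0.00732 percentage points on either side of a share. With all 34 Mup rows the shares were 6.41% to 10.7% on the normal diet and 4.88% to 7.30% on high salt. The members made up 49.2% to 63.5% of the counts of all Mup rows.

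Levels of different genes were compared as CPM per kilobase of the GENCODE transcript. On the normal diet Mup7 was the highest of all numbered Mup genes, at 20501 ± 4329 (SD, n = 4), followed by Mup3 at 12064 ± 351 and Mup20 at 10682 ± 1177. Mup3 and Mup20 overlapped across libraries, while the lowest Mup7 library (14024) lay above the highest Mup3 library (12576). Among the members Mup1 at 4679 ± 3689 and Mup2 at 1574 ± 1730 came next and overlapped with each other. Mup21 stood at 321 ± 34.8, inside the range of Mup2, and Mup5 at 0.757 ± 0.267. On high salt the order of the members changed in these means. Mup3 came first (10231 ± 3664), followed by Mup20 (9299 ± 2111), Mup7 (7176 ± 3005) and Mup1 (4849 ± 3598), and these 4 genes overlapped.

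The clearest diet difference among the members was in Mup7, a copy of the near-identical class. Mup7 stood at 23406, 23800, 23018 and 14486 CPM in normal diet libraries 1 to 4. In high salt libraries 5 to 8 it stood at 5787, 5551, 12049 and 6266 CPM. Every high salt library lay below every normal diet library, with high salt 7 the nearest to the normal diet. The mean was 2.86-fold lower on high salt, from 21178 ± 4472 to 7413 ± 3105 CPM (SD, n = 4 a diet). The edgeR quasi-likelihood test did not call it over all genes (log2 fold change -1.51, SE 0.34, adjusted p = 0.0702). The call changed with single libraries, since Mup7 passed without normal diet 4 (-1.67, edgeR adjusted p = 0.0408) and without high salt 7 (-1.86, edgeR adjusted p = 0.0396). Mup7 did not pass in the other fits without 1 library. Its edgeR adjusted p was 0.164, 0.152 and 0.0566 without normal diet 1, 2 or 3. Without high salt 5, 6 or 8 it was 0.245, 0.254 and 0.206, and 0.251 with high salt 5 and 6 summed. Normal diet 4, the lowest normal diet library for Mup7, also held 50.3 CPM of 4 neutrophil markers, against 0.761 to 1.32 CPM in the other 7 liver libraries. The part of that difference in the Mup7 value was not tested.

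Mup5, a diverged member known from glands, was close to the floor of the measurement. Its counts were 40, 32, 15 and 21 in the normal diet libraries and 16, 17, 20 and 4 in the high salt libraries. As CPM these were 0.952, 0.872, 0.472 and 0.505 on the normal diet and 0.284, 0.352, 0.416 and 0.0706 on high salt, with no overlap. The edgeR test did not call Mup5 (log2 fold change -1.33, SE 0.49, adjusted p = 0.176). Markers of the submandibular and lacrimal glands had 0 of 4 rows in liver and 0 of 4 in kidney.

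The other diverged members had smaller fitted changes, and none of the 3 passed. Mup3 ran from 11607 to 12375 CPM on the normal diet, a narrow range, and stood at 7821, 7646, 15333 and 9471 CPM in high salt 5 to 8. The fitted change was -0.24 on the log2 scale (SE 0.29, edgeR adjusted p = 0.653). High salt 7 lay above all normal diet libraries and the other 3 high salt libraries below them.
Mup20, the darcin gene, stood at 9402, 10074, 8816 and 11359 CPM on the normal diet and at 6952, 6938, 10034 and 10596 CPM on high salt. The diets overlapped (log2 fold change -0.20, SE 0.26, edgeR adjusted p = 0.673). Mup20 had the narrowest spread of the members over all 8 libraries, with the highest library 1.64 times the lowest.
Mup21 stood at 250, 208, 217 and 194 CPM on the normal diet and at 96.4, 94.3, 242 and 152 CPM on high salt. High salt 7 again sat among the normal diet libraries. Mup21 had a fitted change of -0.57 (SE 0.29, edgeR adjusted p = 0.290).

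Mup1 and Mup2 had a spread between libraries larger than the difference between diets. Mup2 stood at 2761 and 2932 CPM in normal diet 1 and 2, and at 104 and 40.5 CPM in normal diet 3 and 4. On high salt it stood at 1339, 1386 and 2450 CPM in libraries 5, 6 and 7, and at 13.0 CPM in library 8. The same 3 libraries, normal diet 3, normal diet 4 and high salt 8, were low in Mup1, at 1302, 1456 and 351 CPM against 4401 to 8512 CPM in the other 5. The pattern did not stop at the members. Mup9 stood at 182, 75.4 and 49.0 CPM in those 3 libraries and at 3983 to 12447 CPM in the other 5. Mup11, Mup18 and Mup19, which share the promoter stretch of Mup2 and Mup9, did not drop there. Mup19 stood at 9016 CPM in normal diet 3 against 3056 CPM in normal diet 1, and Mup11 at 7102 against 4493 CPM. Of the 50-base words of Mup19, as of Mup2, 0% occur in no other gene, and the transcripts of Mup2 and Mup19 are 99.6% identical. The part of the split of shared reads in this contrast was not tested.

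These low libraries came from both diets, so the diet fit left Mup1 and Mup2 with wide errors. For Mup1 the log2 fold change was 0.05 (SE 0.83, edgeR adjusted p = 0.979) and for Mup2 it was -0.17 (SE 1.37, edgeR adjusted p = 0.955). Their signs depended on single libraries. Mup1 was at -0.26 without normal diet 3, -0.25 without normal diet 4 and -0.47 without high salt 7. Mup2 was at 0.32 without normal diet 1, 0.42 without normal diet 2 and 0.24 without high salt 8. The mitochondrial shares of the 3 low libraries (29.6%, 18.7% and 11.3%) overlapped with those of the other 5 (2.06% to 19.2%).

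**Figure D1:**
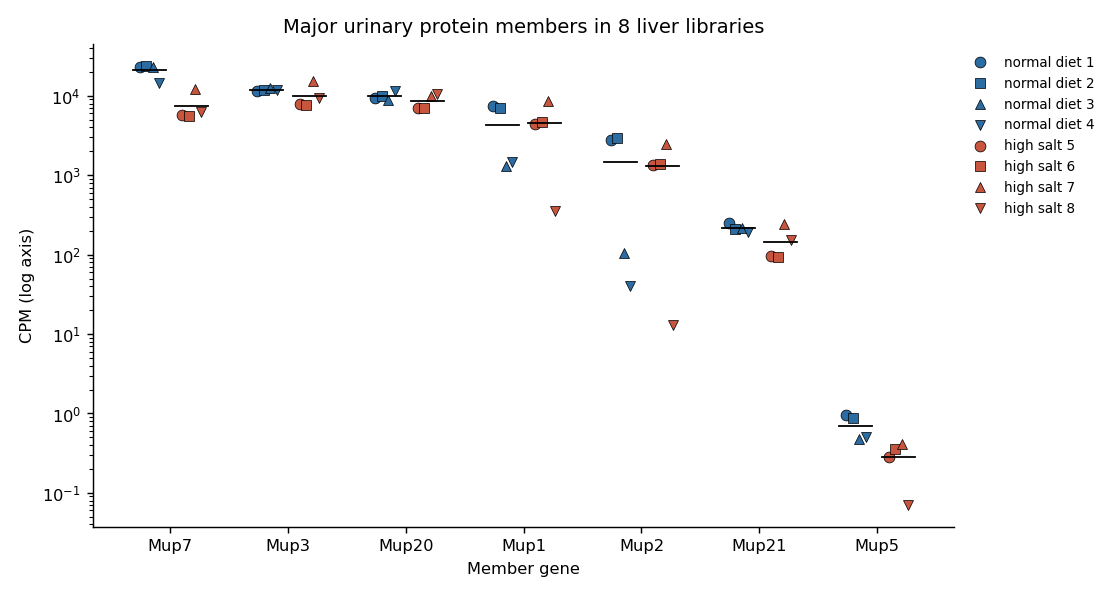
CPM of the 7 members (log axis) in 8 liver libraries, with 4 normal diet libraries in blue and 4 high salt libraries in red, a marker shape per library, and black bars for group means. Mup7 does not overlap between the diets (14486 to 23800 against 5551 to 12049 CPM), while Mup1 and Mup2 drop in normal diet 3, normal diet 4 and high salt 8.

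Over all genes tested in liver, 152 of 15130 had an edgeR adjusted p-value under 0.05 (1%), and 0 of the 7 members were among them. With an unadjusted p-value under 0.05 there were 2 members, Mup5 and Mup7, beside 21.2% of all genes. DESeq2 called 1 member (Mup7) and voom with sample weights 5. The fitted change was below 0 in 6 of the 7 members, beside 7872 of all 15130 genes tested, with a median of -0.24 beside -0.02 over all genes. Diets did not overlap in 2 of the 7, both lower, beside 6.03% of all genes that were lower without overlap. The counts describe the members and are no test of the group.

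Of the other numbered Mup genes of the array, all 14 had a fitted change below 0, beside 7872 of all 15130 genes tested. The median was -1.40, and 5 fell past the threshold over all genes, beside 0.41% of all genes. They were Mup8, Mup13, Mup14, Mup17 and Mup18. Diets did not overlap in 8 of the 14, all lower, beside 6.03% of all genes that were lower without overlap. The 8 were these 5 together with Mup11, Mup15 and Mup16. These copies share reads too. Of the 50-base words of Mup14, 2.40% occur in no other gene, against 7.59% for Mup13, 10.4% for Mup18, 13.1% for Mup8 and 21.9% for Mup17. For Mup15, Mup19 and Mup22 this share is 0%. The values of these copies are therefore uncertain as values of single genes, and they are not separate findings.
Mup17 fell from 3855 ± 1077 to 956 ± 262 CPM, means with SD over 4 libraries a diet (log2 fold change -2.01, SE 0.29, edgeR adjusted p = 0.0211). By library it stood at 2695, 5001, 4503 and 3219 CPM on the normal diet and at 847, 764, 1343 and 871 CPM on high salt.
Mup18 fell from 396 ± 79.5 to 89.4 ± 45.2 CPM (log2 fold change -2.15, SE 0.33, edgeR adjusted p = 0.0258). Mup14 fell from 5168 ± 1484 to 1915 ± 436 CPM (log2 fold change -1.43, SE 0.28, edgeR adjusted p = 0.0490). Both are abundant copies of the near-identical class. Mup8 and Mup13, at 11.1 ± 2.72 and 8.14 ± 3.29 CPM on the normal diet, fell by 1.25 and 1.87 on the log2 scale (edgeR adjusted p = 0.0364 and 0.0475). Their transcripts are 98.5% and 98.8% identical to that of the far more abundant Mup7. The part of Mup7 reads in their counts was not tested.
Mup15 had the largest fitted change of the 14 and was not called (-2.43, SE 0.51, edgeR adjusted p = 0.0597). It stood at 1050, 4229, 6400 and 3350 CPM on the normal diet and at 481, 472, 1006 and 838 CPM on high salt. The smallest fitted changes were those of Mup10 (-0.34, SE 0.50), Mup22 (-0.40, SE 0.32), Mup6 (-0.63, SE 0.39) and Mup9 (-0.70, SE 1.47), below the sizes of the members Mup7 and Mup5. Mup22, the most abundant of the 14, averaged 9013 ± 2081 CPM in the normal diet libraries and 6829 ± 2553 CPM in the high salt libraries, with overlap.
Of the 13 pseudogenes 8 were tested and 0 passed in edgeR. The only 1 with an unadjusted p-value under 0.05 was Mup-ps6 (-2.51, edgeR adjusted p = 0.0783).

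The 5 calls rested on the number and choice of libraries. With high salt 5 and 6 summed to 1 library, 0 of the 14 passed, and 0 passed without high salt 5 or without high salt 6. Without normal diet 1 or normal diet 2 there were 2, without normal diet 3 there were 7, without normal diet 4 there were 6, without high salt 7 there were 3 and without high salt 8 there was 1. Over all genes, 765 passed without normal diet 3 and 409 without normal diet 4.

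**Figure D2:**
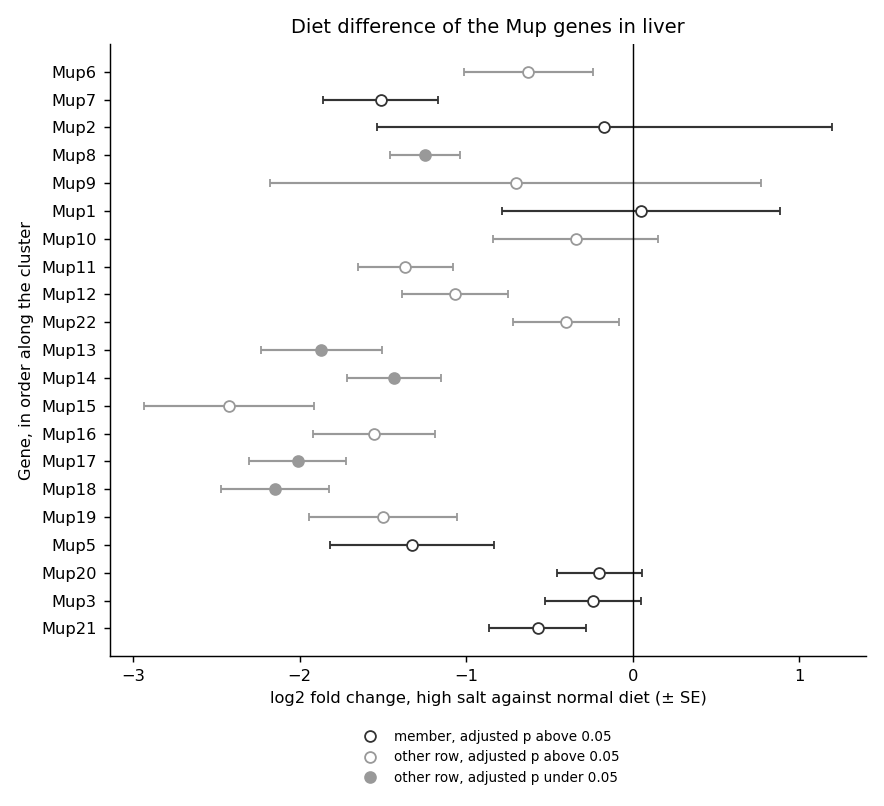
Log2 fold change of high salt against normal diet in liver (x axis) with its standard error, for the 21 numbered Mup genes in their order along chromosome 4. Members are dark and other genes grey, and filled points have an adjusted p-value under 0.05: 5 other genes and 0 members. All points but that of Mup1 lie below 0.

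**Figure D3:**
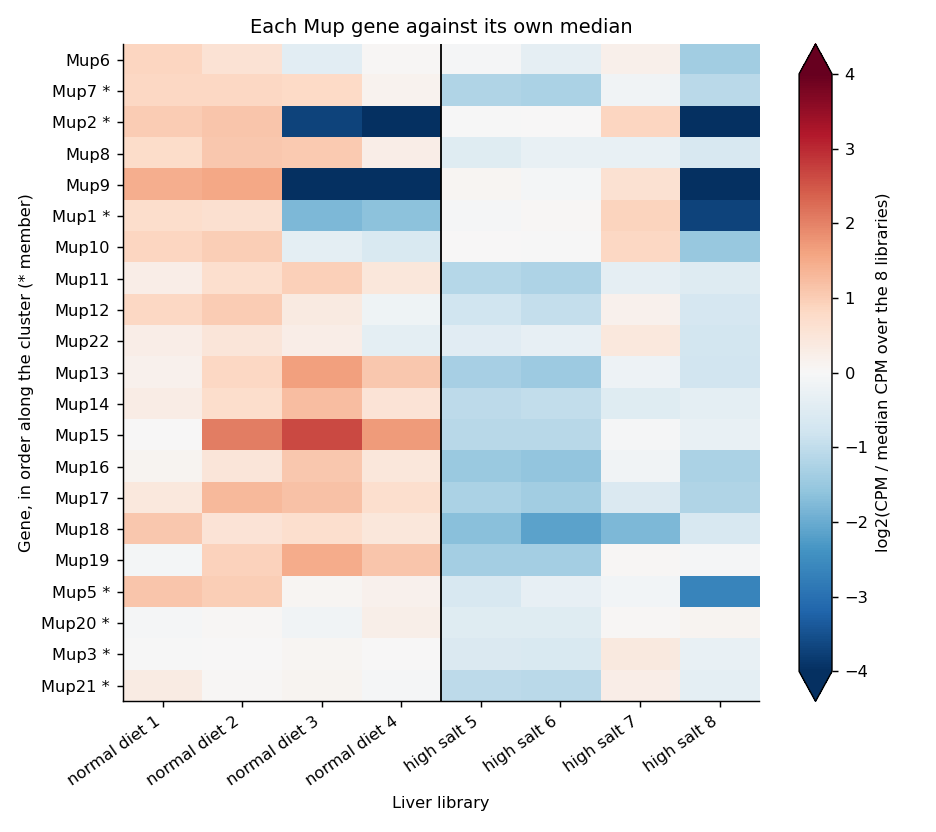
Each numbered Mup gene in each liver library as log2 of its CPM over its own median across the 8 libraries, with blue below and red above the median and colours ending at 4 on either side. Mup2, Mup9 and Mup1 are low in normal diet 3, normal diet 4 and high salt 8, while Mup11 and Mup13 to Mup18 are higher in every normal diet library than in any high salt library.

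The make-up of the member counts also differed between the diets. Mup7 made up 42.6%, 42.6%, 50.2% and 36.9% of the member counts in normal diet libraries 1 to 4, and 21.9%, 21.1%, 24.8% and 23.3% in high salt libraries 5 to 8. These shares do not depend on how libraries are scaled, and they did not overlap between the diets. Against Mup3, a member with mostly unshared sequence, Mup7 counts stood at 202%, 202%, 186% and 124% on the normal diet and at 74.0%, 72.6%, 78.6% and 66.2% on high salt. In these ratios high salt 7 lay with the other high salt libraries. Such a ratio shows unequal change of the pair and not which gene moved.
The share of Mup3 in the member counts averaged 24.8% ± 4.36 in normal diet libraries and 31.4% ± 2.81 in high salt libraries (SD, n = 4 a diet), and that of Mup20 20.8% ± 5.48 and 28.2% ± 7.98. Both overlapped between the diets. Mup1 ranged from 1.31% to 17.9% and Mup2 from 0.0484% to 5.26% over the 8 libraries. Mup21 held 0.449% ± 0.0542 and 0.447% ± 0.102, a difference smaller than the spread.

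**Figure D4:**
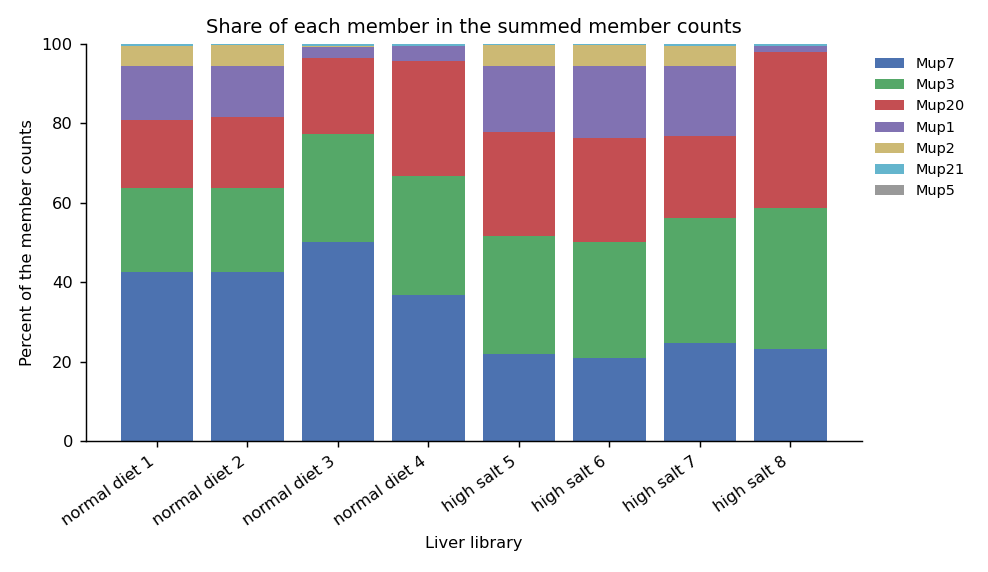
Percent of the summed member counts (y axis) held by each of the 7 members in the 8 liver libraries (x axis). Mup7 takes 36.9% to 50.2% in the normal diet libraries and 21.1% to 24.8% in the high salt libraries.

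The sum of the members was lower on high salt in 3 of 4 libraries. It stood at 54904, 55932, 45833 and 39236 CPM in normal diet libraries 1 to 4 and at 26397, 26332, 48621 and 26848 CPM in high salt libraries 5 to 8. High salt 7 lay inside the range of the normal diet, so the diets overlapped. With the members as a single summed row the log2 fold change was -0.61 (SE 0.32), which is given as a size with no p-value because the members were chosen. The size depended on the scaling: mean salt over normal was 0.654 with TMM and 0.650 with RLE, but 0.762 on plain library totals and 0.782 on totals without mitochondrial genes. On the last scale high salt 7 (56253 CPM) lay above every normal diet library (43697 to 56242 CPM). With all 34 Mup rows summed it was -0.83, and without high salt 7 the member value was -0.90.
Albumin, the main plasma protein made by hepatocytes, had a fitted change above 0 that did not pass (log2 fold change 0.76, edgeR adjusted p = 0.190). The member counts amounted to 111%, 129%, 90.5% and 121% of the Alb counts in the normal diet libraries and to 35.7%, 36.8%, 57.0% and 39.6% in the high salt libraries, with no overlap. High salt 7 held 37.4 CPM of the kidney tubule gene Kap, against 0 to 9.82 CPM in the other liver libraries, and its part in the Mup values was not tested.

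In kidney the Mup transcripts were rare. The 5 members held 0.00867% of the counts in normal diet library 2 (95% Wilson interval 0.00827% to 0.00909%) and 0.00145% or less in the other 5 libraries. In CPM the sum was 1.52, 99.5 and 15.3 in normal diet libraries 1 to 3 and 4.44, 1.24 and 0.158 in high salt libraries 1 to 3. Normal diet 2 stood far above the other 5 libraries and normal diet 1 lay among the high salt libraries. In bulk tissue fewer cells of a type and less RNA per cell cannot be told apart.

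Mup20 had the highest mean of the members in kidney on the normal diet, through normal diet 2 and 3, while Mup7 was higher in normal diet 1 and Mup3 in high salt 1 and 2. Mup20 stood at 0.226, 43.9 and 6.68 CPM in normal diet 1 to 3 and at 1.30, 0.286 and 0.0909 CPM in high salt 1 to 3, the highest value resting on 749 counts and the lowest on 2. The fitted change of Mup20 did not pass (log2 fold change -4.84, SE 1.54, edgeR adjusted p = 0.9996). Normal diet 1 lay below high salt 1 and 2, so the diets overlapped.
Mup3 held 7, 485 and 83 counts on the normal diet and 46, 12 and 1 on high salt, with overlap. Mup3 did not pass either (-3.49, SE 1.41, edgeR adjusted p = 0.9996).
Mup7 stood at 0.562, 24.0 and 4.07 CPM on the normal diet and at 0.519, 1.69e-25 and 0.0216 CPM on high salt, where the middle value is an estimated share of reads that amounts to no read. The diets of Mup7 did not overlap, by a narrow margin between normal diet 1 and high salt 1, beside 3.04% of all kidney genes that were lower without overlap. The test did not call it (log2 fold change -5.57, SE 1.53, edgeR adjusted p = 0.9996). Mup1 held 6.74, 46.7 and 6.12 counts and 12.8, 3.11 and 0, too few for the filter on low counts. Mup21 held 1, 8 and 5 counts on the normal diet and 0 in each high salt library. A count of 0 allows up to 3 counts, so the Mup21 levels of normal diet 1 and of high salt could not be told apart at this depth.

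In the edgeR test 0 of 15847 kidney genes had an adjusted p-value under 0.05 (0%), and the 3 members that passed the filter, Mup3, Mup7 and Mup20, were not called. The unadjusted p-value was under 0.05 in all 3, beside 2.01% of all genes, and DESeq2 and voom with sample weights called 0 of the 3. The kidney fold changes rested on normal diet 2. For the summed members the log2 fold change was -4.30, and it ran from -5.87 to -2.11 when each library was dropped in turn, the smallest size being that without normal diet 2.
Of the 10 hepatocyte markers, 7 were also highest in kidney normal diet 2, and Ttr, Serpina1a and Cyp2e1 were not. Alb stood at 2.70, 35.7 and 10.9 CPM in normal diet 1 to 3 and at 4.79 to 9.96 CPM on high salt. Apoa1, the main protein of high-density lipoprotein, stood at 0.150, 2.93 and 0.726 and at 0.983, 0.126 and 0.318 CPM. Ahsg and Cps1 were highest in the same library, at 3.40 and 2.87 CPM. The whole list ran the other way, at 1322, 983 and 851 CPM in normal diet 1 to 3 and 1443 to 1638 CPM on high salt, most of it Cyp2e1, a gene also expressed in kidney. The part of the hepatocyte genes in the kidney Mup values was not tested.

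**Figure D5:**
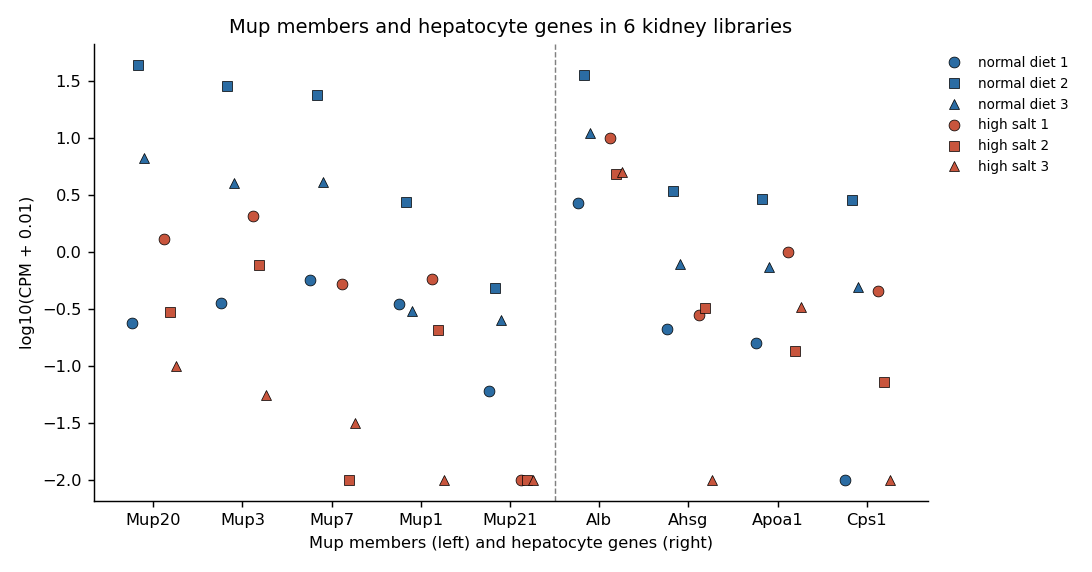
Log10 of CPM plus 0.01 (y axis) for 5 Mup members and 4 hepatocyte genes in 6 kidney libraries, with normal diet in blue and high salt in red. Normal diet 2 is the highest library for all 9 genes, at 43.9 CPM for Mup20 and 35.7 CPM for Alb. The 4 hepatocyte genes shown are among the 7 of 10 hepatocyte markers that were highest there. Ttr, Serpina1a and Cyp2e1, which were highest in high salt libraries, are not shown.

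The diet difference was also compared between the organs. Of 16633 genes in the fit of all 14 libraries, 0 had an edgeR adjusted p-value under 0.05 for this difference (0%), members included. The difference, liver minus kidney, was 2.06 for Mup1, 3.26 for Mup3, 4.06 for Mup7 and 4.65 for Mup20 on the log2 scale (edgeR adjusted p = 0.675, 0.462, 0.391 and 0.306). Unadjusted edgeR p-values were under 0.05 in Mup3, Mup7 and Mup20, the members that also passed the filter in kidney, beside 10.1% of all genes. DESeq2 called 1 member (Mup20, adjusted p = 0.0399) and voom 0. Mup1 and Mup21, too low in kidney for that filter, entered this fit through their liver counts, so neither is counted there. For Mup21 the kidney high salt libraries were all at 0, so its fitted difference is not a size. The difference of the summed members was 3.67 and fell to 1.48 without kidney normal diet 2.

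On the normal diet all 5 members with rows in both tables were higher in liver, beside 32.9% of all genes that were called higher there and 65.1% called in either direction. Mup21 stood at 217 ± 23.6 CPM in liver (SD, n = 4) and 0.254 ± 0.210 CPM in kidney (SD, n = 3), a log2 difference of 10.31 (SE 0.60). Mup20 differed by 9.74 (SE 1.41, edgeR adjusted p = 2.2e-05) and Mup1 by 12.51 (SE 1.63). Mup3 and Mup7 lay between, at 10.63 and 11.67. Mup1 and Mup21 were too low in kidney for the filter on low counts there. They entered this fit through their liver counts, so their calls are no test and their sizes rest on few kidney counts. The 11 other numbered Mup genes with rows in both tables were all called higher in liver too, by 6.56 to 14.15 on the log2 scale. Only 1 of these 11 passed the filter in kidney, so the same limit holds for the rest. Without kidney normal diet 2 the difference of the summed members was 13.01 in place of 10.81. Upper quartile scaling moved the median of all genes from 0.02 to -0.28, a shift far smaller than any member's difference.

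Genes that respond to the same hormones were taken as lists. Of 31 genes of growth hormone, androgen and glucocorticoid signalling and hepatocyte transcription factors, 0 passed the edgeR test in liver, and 5 had an unadjusted p-value under 0.05 (16.1%, beside 21.2% of all genes), all higher. The median of the list was 0.28, beside -0.02 over all genes. Its highest fold change was that of Irs1, an adaptor of the insulin receptor (log2 fold change 1.38, edgeR adjusted p = 0.0598). Irs1 passed without normal diet 3 (edgeR adjusted p = 0.0105), a fit in which 765 genes passed in place of 152. The lowest were those of the transcription factor gene Cebpb (-0.43) and of Igfals (-0.35), whose product binds circulating insulin-like growth factor. Each rested on 1 library: Cebpb was at 0.13 without normal diet 4 (42.3 CPM, against 11.2 to 17.5 CPM in the other 7) and Igfals at -0.04 without normal diet 1 (144 CPM, against 61.8 to 77.4 CPM).

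Of 19 male-biased liver genes tested, 3 fell on high salt, beside 0.41% of all genes that were called lower. The unadjusted edgeR p-value was under 0.05 in 11 (57.9%, beside 21.2% of all genes), with 9 lower and 2 higher. Cyp7b1, an oxysterol hydroxylase, fell from 475 ± 42.7 to 157 ± 22.0 CPM (log2 fold change -1.60, SE 0.17, edgeR adjusted p = 0.00517). It ran from 441 to 533 CPM on the normal diet and from 144 to 190 CPM on high salt, so the diets stood well apart, and it passed in all 20 alternatives. Selenbp2, which encodes a selenium-binding protein and has a near-identical paralog that may share its reads, fell from 1129 ± 185 to 228 ± 93.1 CPM (log2 fold change -2.31, edgeR adjusted p = 0.0130). Moxd1 stood at 45.2, 14.3, 0.283 and 13.0 CPM on the normal diet and at 0.371 CPM or less on high salt (log2 fold change -7.19, edgeR adjusted p = 0.0470). Normal diet 3 of Moxd1 lay inside the high salt range. Selenbp2 passed in 15 of 20 alternatives and was lost without high salt 5, 6 or 8, and Moxd1 passed in 8 of 18 and kept its call only without normal diet 3 or 4 among the fits without 1 library. The median of the list was -0.51, and its highest fold changes were those of Cspg5 (1.25) and Cyp2u1 (0.52), which did not pass.

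Of 9 female-biased liver genes tested, 1 was called lower, beside 0.41% of all genes, and 0 higher. The unadjusted edgeR p-value was under 0.05 in 4 (44.4%, beside 21.2% of all genes), with 2 lower and 2 higher. The gene called was Cyp2b10, a drug-metabolising P450, which fell from 13.8 ± 6.12 to 2.64 ± 0.997 CPM (log2 fold change -2.38, edgeR adjusted p = 0.0321). Cyp2b10 passed in 13 of 20 alternatives and was lost without normal diet 2 or high salt 5, 6 or 8. The median of the list was 0.12. The lowest fold change was that of Cyp2c69 (-2.75, edgeR adjusted p = 0.0746). It stood at -1.80 without normal diet 1 (3.97 CPM, against 0.547 to 1.07 CPM in the other normal diet libraries). Cyp2c69 passed without normal diet 3 (edgeR adjusted p = 0.0486), a fit in which 765 genes passed in place of 152. The highest were those of Cyp2a4 (7.18, edgeR adjusted p = 0.133) and Acot3 (2.10, edgeR adjusted p = 0.0853). The Cyp2a4 value came from high salt 8, at 254 CPM against 0.240 to 1.28 CPM in the other 7 libraries (0.51 without it), and Cyp2a4 shares most of its sequence with Cyp2a5.
The list of other lipocalins also held Fabp1, which is no lipocalin. Of its 11 genes tested, 1 was called lower, beside 0.41% of all genes, and 0 higher. The unadjusted edgeR p-value was under 0.05 in 8, all lower (72.7%, beside 11.3% of all genes that were lower at that threshold). The gene called was Obp2a, which fell from 3.14 ± 0.372 to 0.885 ± 0.394 CPM (log2 fold change -1.82, edgeR adjusted p = 0.0408). Obp2a passed in 12 of 19 alternatives and was lost without normal diet 1 or 2 or high salt 5, 6 or 7. The median of the list was -0.67. Lcn2 and Orm2, both acute phase genes, had the lowest fold changes (-9.32 and -6.41, edgeR adjusted p = 0.103 and 0.0722). Normal diet 4 held 2848 CPM of Lcn2 and 1547 CPM of Orm2, against at most 4.31 and 46.8 CPM in the other 7 libraries. Without it the values were -1.64 and -2.88, and both passed (edgeR adjusted p = 0.0364 and 0.00929), in a fit where 409 genes passed in place of 152. Fabp1, a fatty acid-binding protein, and Ptgds had the highest (0.49 and 0.12), with Ptgds at -0.47 without high salt 8.
Of 24 abundant secreted proteins of hepatocytes 0 passed in edgeR and 10 had an unadjusted p-value under 0.05, of which 9 were lower (37.5%, beside 11.3% of all genes that were lower at that threshold). The median was -0.41. Ambp and Rbp4 are in both this list and that of other lipocalins, so the shares of those lists are not independent. Hpx, which binds haem in plasma, and Serpina3k, a protease inhibitor, had the lowest fold changes (-1.98 and -1.18). Hpx stood at -1.31 without normal diet 4 (22104 CPM, against 4351 to 7536 CPM in the other normal diet libraries). Both genes passed without that library (edgeR adjusted p = 0.0423 and 0.0407), in a fit where 409 genes passed in place of 152. Alb and Ttr, the carrier of thyroid hormone and retinol, had the highest (0.76 and 0.28). In kidney 0 genes of these 5 lists passed in edgeR, and 2 had an unadjusted p-value under 0.05.

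Genes that lie beside the array did not pass. The window from 59464294 to 62650864 on chromosome 4 holds 24 rows of the liver table that are no Mup genes, 5 of them inside the array. Of the 18 that were tested 0 were called by edgeR, beside 1% of all genes. An unadjusted edgeR p-value under 0.05 was found in 3 of the 18, beside 21.2% of all genes, with a median log2 fold change of -0.04. With so few genes, these counts do not set the neighbours apart from all genes. In kidney 0 of 19 were called, beside 0% of all genes, and 0 had an unadjusted p-value under 0.05, beside 2.01% of all genes.

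Of 12167 liver genes with a mean of at least 50 counts, those whose log2 CPM followed the summed members most closely over the 8 liver libraries included Uqcrh-ps1, Uqcrh, Tmem199 and Gabarapl2. Their Pearson r ran from 0.988 to 0.996, as a measure of likeness over 8 libraries that share depth and scaling. Uqcrh, a subunit of the respiratory chain, stood at 452, 467, 381 and 339 CPM on the normal diet and at 219, 205, 418 and 209 CPM on high salt, so it shared the high value of high salt 7. The 3 genes that ran most opposite were Rgs12, Znfx1 and Eif4g1 (r from -0.984 to -0.979). None of these 7 genes passed the diet test in liver (edgeR adjusted p = 0.165 to 0.205).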

How the data were processed

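Liver and kidney RNA was sequenced from SMARTer mRNA libraries of total RNA, per the labels' protocols. STAR 2.5.3a, Partek 7.0, DESeq2 and mm10 are named in the submitters' processing notes, with no role or order. The authors deposited expected counts per gene from an expectation-maximisation quantification, per the file headers. A further deposited table per tissue holds a normalized linear signal, made by a method not given in the sources used here. An estimated count can divide a read among copies, so single Mup copies are less certain than sums. All columns of samples were used (0 left out).

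After rounding, these counts were tested with edgeR 4.0.16 in R 4.3.3 (quasi-likelihood, TMM, filterByExpr), in each tissue apart and over all 14 libraries for comparisons between organs, with no replicate block. P-values were adjusted by Benjamini-Hochberg over all genes tested, with a threshold of 0.05. Other settings tried were scaling by upper quartile or RLE, DESeq2 1.42.0, voom and limma 3.58.1 (the latter on log2 of the deposited signal plus a pseudocount of 1 or 0.1), other filters, no mitochondrial genes, all libraries in 1 fit, a replicate block, summing or leaving out libraries. In a simulation that changed 200 genes by a log2 of 2, the liver fit recovered 174 over 15130 genes (11 false calls) and the kidney fit 145 over 15847 genes (11 false calls). The simulated counts were drawn from the kind of model that was then fitted, with independent libraries. They do not show how the fit fares where libraries of a group are very alike or differ in mitochondrial share.

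Members and lists were chosen with earlier results of these data known. Named are all Mup rows, list members past the threshold with the 2 highest and 2 lowest fold changes of each list in liver, called rows within 500000 bases of the array, and the 5 genes most like and 3 least like the summed members. Of the genes this rule names, 2 are not reported here.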

Additional observations from a re-analysis of the deposited data

Results flagged for a closer look

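Of 60 liver groups of 4 values checked for a library far from the other 3, 7 had one, where chance alone flags about 1 in 20, or 3 of 60. High salt 7 stood high in the summed CPM of the members (48621, against 26332 to 26848 in the other high salt libraries) and of all Mup rows (78117, against 42288 to 43229). It also stood high in Mup7 (12049 CPM, against 5551 to 6266) and in Mup16 (1092 CPM, against 403 to 499). High salt 8 stood low in the share of Mup1 (1.31% of the member counts, against 16.7% to 17.9%) and of Mup2 (0.0484%, against 5.04% to 5.26%). Normal diet 4 stood low in Mup7 (14486 CPM, against 23018 to 23800). Several of these values share the same counts, so they are not separate findings.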

How the results depend on the processing

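Liver genes past the threshold, 152 in the edgeR test, were 1122 with DESeq2, 8284 with voom, 12 with high salt 5 and 6 summed, 52 without normal diet 1 and 2 together, 98 and 58 with limma on the deposited normalized values (pseudocounts of 1 and 0.1), 260 with all 14 libraries in 1 fit, and 12 to 765 when each library was left out. Members called in liver were 1 with DESeq2 and 5 with voom in place of 0, and 0 to 1 when each library was left out. Other numbered Mup genes called in liver, 5 in the edgeR test, were 3 with upper quartile scaling, 10 with DESeq2, 12 with voom, 3 with at least 10 counts in every library, 0 with high salt 5 and 6 summed, 2 without normal diet 1 and 2 together, 3 and 2 with limma, 0 with all 14 libraries in 1 fit, and 0 to 7 when each library was left out. The summed members in liver stood at -0.99 with voom in place of -0.61.

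Mup1 in liver turned to -0.63 with voom, -0.26, -0.25 and -0.47 without normal diet 3, normal diet 4 and high salt 7, and -0.19 with limma, and stood at 1.71 without normal diet 1 and 2 together (0.44 at most without 1 library). Mup2 turned to 0.32, 0.42 and 0.24 without normal diet 1, normal diet 2 and high salt 8, to 4.17 without normal diet 1 and 2 together, and to 0.19 with limma, and stood at -0.86 with voom (-0.69 at least without 1 library). Without normal diet 1 and 2 Mup9 turned to 4.86 and Mup10 to 0.56, and Mup9 was at 0.36 with limma. The causes were not tested. Mup7 kept its direction in all 20 alternatives (-1.96 to -1.34) and passed in 4.

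Kidney genes past the threshold were 11 with DESeq2 in place of 0. For the difference of the diet effect between organs, genes past the threshold were 145 with DESeq2, 2345 with voom, 2 with at least 10 counts in every library, 1 without normal diet liver libraries 1 and 2, and 0 to 7 when each library was left out, in place of 0. DESeq2 called 1 member there. The difference turned to 0.25 for Mup10 with voom, to 5.38 for Mup10 without kidney high salt 1 (down to -4.10 without kidney normal diet 2) and to -1.13 for Mup12 without kidney normal diet 2 (up to 5.53 without kidney high salt 2). The difference of the sums ran from 1.48 to 5.21 and the liver against kidney value of the sums from 10.25 to 13.01 when each library was left out. In the liver against kidney test DESeq2 called 3 members and gave no adjusted p for Mup3 and Mup7. With at least 10 counts in every library no member could be tested in kidney or between organs.

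With the replicate number as a block, 0 kidney genes and 0 members were called, and the kidney sum was -3.78. Same-numbered kidney libraries deviated together with correlations of 0.41, 0.37 and -0.09, and normal diet liver and kidney libraries with -0.15, 0.15 and -0.19, so the numbers were not taken as pairs. The block over normal diet libraries 1 to 3 of each organ called 7738 genes, all 5 members among them, with 12.27 for the sum.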
